A study of Mus musculus with 50 samples.

Results

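The genes described here are 27 genes of cholesterol synthesis, uptake and efflux, out of 52338 genes shared by the 3 count tables of the series. They were chosen by gene symbol for their place in the pathway: 4 regulators, 8 enzymes of the mevalonate and isoprenoid steps, 11 enzymes of the squalene and sterol steps, and 4 genes of uptake, transport and efflux. The 8 and 11 enzymes are together called the 19 synthesis genes. The study asked how chemogenetic activation of GFRAL+ neurons, hindbrain cells that carry the GDF15 receptor, changes transcripts in tissues whose glucose uptake was lower (quadriceps) or higher (perigonadal white adipose tissue, pgWAT). All mice were male and carried hM3DGq, an engineered receptor that clozapine N-oxide (CNO) switches on. Mice with a Gfral-driven Cre are called TG and Cre-negative mice WT, and CNO at 1 mg/kg was given to both, so no group without CNO was compared. There were 20 libraries of quadriceps from clamped mice (10 WT, 10 TG), 18 of pgWAT at 1 h after CNO (9 of each genotype) and 12 of pgWAT at 6 h (6 of each). No age was given in the labels used here, and they do not say that each numbered replicate is a separate mouse, so p-values measure the spread between these libraries, part of which may be technical.

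Cells make cholesterol from acetyl-CoA through mevalonate, squalene and a series of sterol intermediates. When membrane cholesterol is low, SCAP escorts the transcription factor SREBP2 from the endoplasmic reticulum to the Golgi, where it is cut and released to switch on the synthesis genes, and the INSIG proteins hold SCAP back when sterols are plentiful. When sterols accumulate, oxysterols activate the nuclear receptors LXR, which switch on cholesterol export through ABCA1 and ABCG1 and, through MYLIP, the removal of lipoprotein receptors from the cell surface. White adipose tissue is a large store of free cholesterol, which it mostly takes up rather than makes.

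Windows from RefSeq promoters (250 bases before to 50 after the start, GRCm38.p6) show the letters that these 2 arms of control are known to read. A promoter was matched for 22 of the 27 genes. The sterol regulatory element core TCACNCCA, searched on both strands, was present in 3 of the 22, Srebf2, Hmgcs1 and Msmo1 (13.6%), against 4.97% of all 27025 genes with a promoter. The CCAAT box, which often lies beside such an element, was present in 19 of the 22 (86.4%, all but Scap, Acat2 and Abca1), against 41.1% of all genes. The direct repeat of GGTTA and GGTCA with any 5 bases between, a strict form of the element that LXR binds, was present in Abca1 alone among the 22 (4.55%), against 0.0481% of all genes. Abca1 is a gene that LXR is known to switch on, so its match was likely beforehand. No excess is read from 1 gene. The glucocorticoid palindrome, GNACA and TGTNC with any 3 bases between, was found in 0 of the 22, against 0.537% of all genes. The motifs do not overlap in the windows printed. A match is only a match of letters, and a missing match says only that these letters are not in the window. The 4 windows are printed on the gene's own strand because they hold the matches to the sterol and LXR elements. Capitals mark the matches, ATTGG is the CCAAT box read on the other strand, and the Abca1 repeat also reads on the other strand.
Srebf2, chr15:82147095-82147150, plus strand: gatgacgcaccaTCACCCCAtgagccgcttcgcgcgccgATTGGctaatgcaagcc
Hmgcs1, chr13:119690163-119690233, plus strand: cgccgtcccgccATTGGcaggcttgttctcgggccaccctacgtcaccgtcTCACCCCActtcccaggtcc
Msmo1, chr8:64733722-64733767, minus strand: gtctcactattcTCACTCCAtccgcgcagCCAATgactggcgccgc
Abca1, chr4:53159936-53159974, minus strand: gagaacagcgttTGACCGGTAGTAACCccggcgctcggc
Msmo1 (sterol C4-methyl oxidase) and Hmgcs1 (HMG-CoA synthase) are enzymes of the pathway, and Srebf2 encodes SREBP2 itself. None of these 3 genes passed the threshold between genotypes where it was tested. Abca1 passed in pgWAT at 6 h, though its call was lost in 6 of 12 fits that left out a single library. Mylip, whose window held no match to the LXR repeat, also passed there. Any link between the motifs and the genotype differences was not tested.

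Total gene counts per library were 959980 to 2613672 in the quadriceps set, 976610 to 4852560 in the 1 h set and 9150496 to 12883462 in the 6 h set. Levels are in CPM, counts scaled by TMM to a common library size. A count of 0 allows up to 3 counts, which were worth 1.15 to 3.13, 0.618 to 3.07 and 0.233 to 0.328 CPM per library. These limits cover counting error only. The summed level of 5 skeletal muscle markers was 30700 to 55300 CPM in quadriceps, and that of 5 adipocyte markers was 8140 to 19700 CPM in pgWAT at 1 h and 27700 to 35400 CPM at 6 h, so the tissue labels held. Of the 27 genes, 13 had enough counts to be tested in quadriceps, 26 in pgWAT at 1 h and 26 at 6 h. Idi1, which isomerises the first isoprenoid building block, had only 14, 104 and 78 counts over the 3 sets and was never tested. Several libraries stand apart. In pgWAT at 1 h, liver transcripts exceeded 1000 CPM in WT replicate 7 (2320 CPM) and TG replicate 3 (9660 CPM), and 9 of the 18 libraries (6 WT, 3 TG) were high in liver or epididymal duct transcripts by a limit of 5 times the median. At 6 h TG replicate 2 had 1460 CPM of liver transcripts against at most 81.2 CPM in the other libraries, and in quadriceps WT replicates 2 and 10 were high in heat shock transcripts, WT replicate 2 also in liver transcripts (255 CPM against at most 3.99 CPM in the other libraries).

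A difference is the log2 ratio TG/WT, given with its standard error (SE). P-values were adjusted by Benjamini-Hochberg over all genes tested in a set with edgeR's quasi-likelihood F test, and the threshold was an adjusted p of 0.05. In pgWAT at 6 h, 2 of the 26 genes tested were higher in TG, Mylip and Abca1, and 0 were lower. Of all 14359 genes tested at 6 h, 14.4% passed and 6.88% were higher. In quadriceps 1 of 13 passed, Scap, which was lower, against 2.03% of all 8070 genes (0.942% lower). In pgWAT at 1 h, 0 of 26 passed, against 0.0722% of all 11087 genes, and 0 passed with DESeq2. In edgeR 2 of 26 were at an unadjusted p under 0.05, beside 4.62% of all genes. None of the 19 synthesis genes passed the threshold in any set, with 1 (Nsdhl, at 1 h) at an unadjusted p under 0.05 in edgeR. The plot of differences by gene shows this: the filled points are few, and those for the enzymes are all open.

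**Figure D1:**
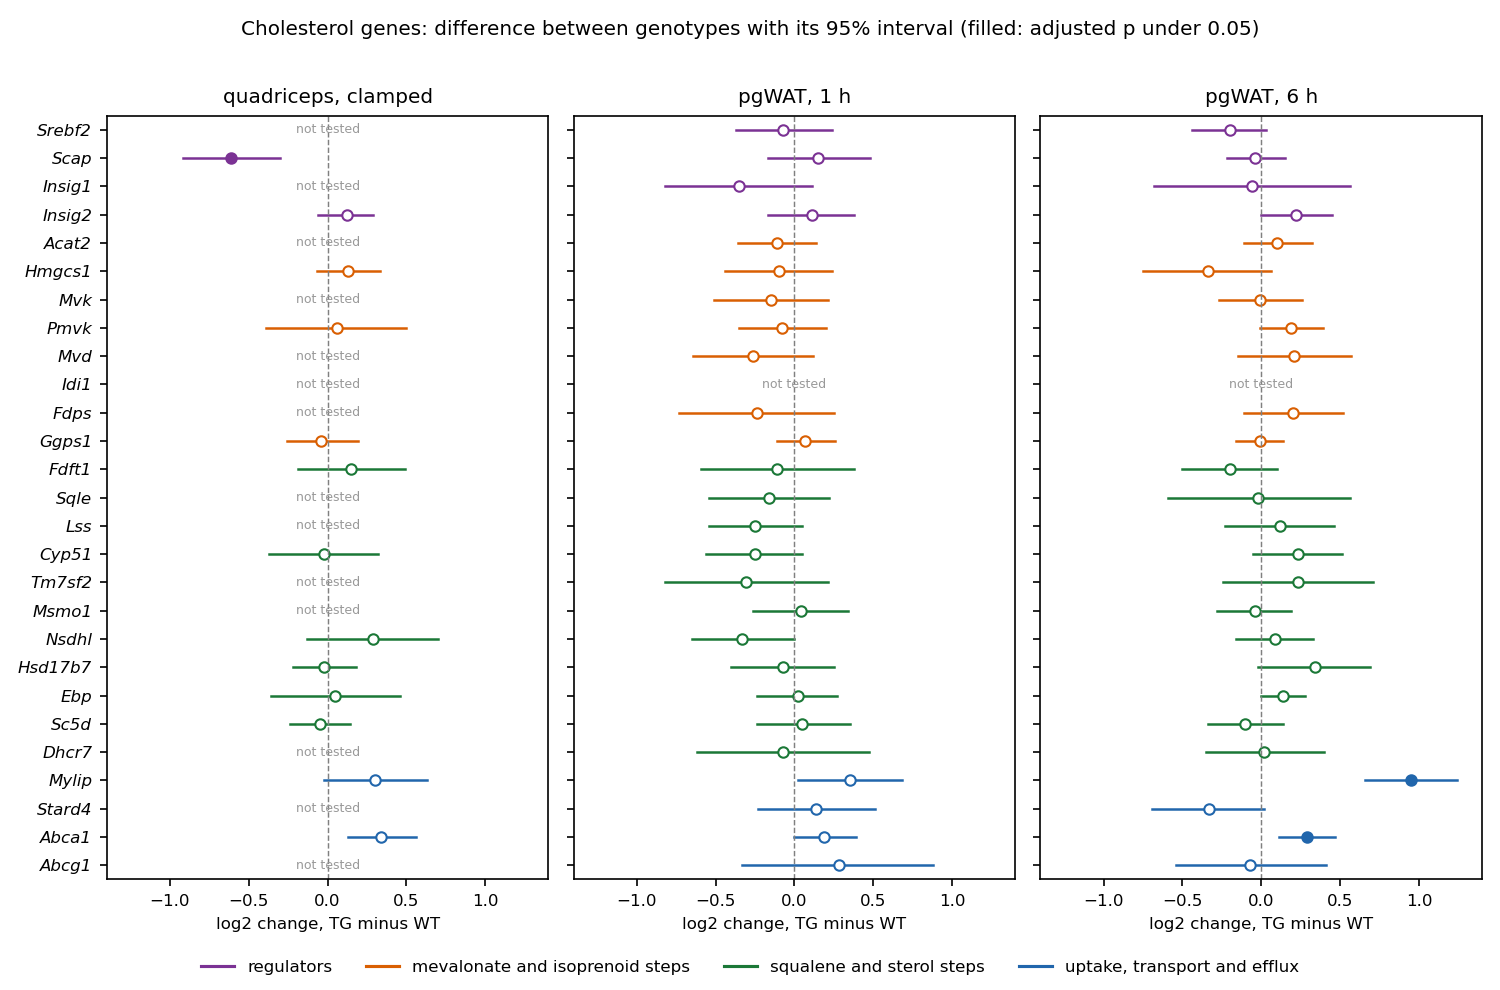
Difference between TG and WT for each of the 27 genes (rows, coloured by role) in quadriceps, pgWAT at 1 h and pgWAT at 6 h (panels), on a log2 axis. Points are edgeR estimates, lines their 95% intervals, and filled points have an adjusted p under 0.05: Scap in quadriceps (-0.61), Mylip (0.95) and Abca1 (0.29) in pgWAT at 6 h.

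The regulators come first. Srebf2 (ENSMUSG00000022463, chromosome 15, 82147181 to 82205379) encodes SREBP2. At 6 h its level had a lowest, median and highest value of 26, 28.3 and 35.9 CPM in WT and 19.3, 26.5 and 29.9 CPM in TG. The groups overlapped, and the difference did not pass (-0.20, SE 0.11, edgeR adjusted p = 0.26). At 1 h the values were 27.1, 44.4 and 59.8 CPM in WT and 31.2, 42.3 and 57.2 CPM in TG (-0.07, SE 0.15). In quadriceps Srebf2 had 219 counts over all 20 libraries and was not tested, with means of 8.89 ± 3.18 CPM in WT and 8.94 ± 2.56 CPM in TG (SD, n = 10 each).

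Scap (ENSMUSG00000032485, chromosome 9, 110333288 to 110384950) encodes the escort of SREBP2, and was the only one of the 27 genes past the threshold in quadriceps. Its lowest, median and highest levels there were 12.1, 17.9 and 25.3 CPM in WT and 9.57, 12.5 and 14.7 CPM in TG. All 10 TG libraries lay below the WT median, and 4 lay below the lowest WT library, so the groups overlapped. Scap fell by 0.61 on the log2 scale (SE 0.15, 95% interval -0.92 to -0.30, edgeR adjusted p = 0.0253), from 18.2 ± 4.29 to 12.3 ± 1.84 CPM (SD, n = 10 each). The call rests on 394 counts in all 20 libraries, and it was lost with DESeq2 (-0.61, adjusted p = 0.0598), without WT replicate 4 (-0.58, edgeR adjusted p = 0.0555), without WT replicate 6 (-0.51, 0.0806) and without TG replicate 1 (-0.57, 0.058). It was kept without the WT libraries high in heat shock transcripts (-0.62, edgeR adjusted p = 0.04). In pgWAT Scap did not pass: at 1 h the levels were 24.4, 33.2 and 55.3 CPM in WT and 24.6, 37.5 and 53.8 CPM in TG (0.15, SE 0.16), and at 6 h 33.4, 37.5 and 45 CPM in WT and 32, 36.5 and 42.2 CPM in TG (-0.04, SE 0.09). Whether the difference in quadriceps differs from that in pgWAT was not tested. Scap shares 985 exonic bases with a gene model on the opposite strand, 5830462I19Rik, which had 0 counts in every set. The strand setting of the counting was not given, so reads in those bases may have been left uncounted and its level is uncertain.

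Insig1 and Insig2 encode the anchors that retain SCAP. Insig1 (ENSMUSG00000045294, chromosome 5, 28071363 to 28078662), itself a target of SREBP2, was the regulator with the widest spread in pgWAT. In pgWAT at 1 h its lowest, median and highest levels were 57.5, 125 and 242 CPM in WT and 69.7, 106 and 149 CPM in TG. The TG range lay inside the WT range, and the difference did not pass (-0.35, SE 0.22, p = 0.127 unadjusted in edgeR's quasi-likelihood test). Without the 9 libraries high in liver or duct transcripts the difference was -0.87 (unadjusted p = 0.00385, edgeR adjusted p = 0.883), from 3 WT and 6 TG libraries. At 6 h Insig1 was 42.7, 57.1 and 93.3 CPM in WT and 34.9, 66.4 and 89.9 CPM in TG. The groups covered nearly one range, with a difference of -0.06 whose 95% interval of -0.68 to 0.56 was the widest of any regulator. In quadriceps it had 125 counts and was not tested.

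Insig2 (ENSMUSG00000003721, chromosome 1, 121304353 to 121332589), the form that is less dependent on SREBP2, was the most abundant regulator in quadriceps, with means of 125 ± 17.0 CPM in WT and 135 ± 16.0 CPM in TG (SD, n = 10 each, 0.12, SE 0.08, edgeR adjusted p = 0.689). At 6 h its lowest, median and highest levels were 50, 53.8 and 61.4 CPM in WT and 46.4, 65.1 and 81.1 CPM in TG. Although 4 of 6 TG libraries lay above the highest WT library, TG replicate 1 was the lowest of all 12, and the difference did not pass (0.22, SE 0.10, edgeR adjusted p = 0.182). Without TG replicate 1 it was 0.31 (edgeR adjusted p = 0.0191). At 1 h the levels were 89.5, 130 and 166 CPM in WT and 105, 128 and 225 CPM in TG (0.11, SE 0.13). The highest value belonged to TG replicate 3, the library with most liver transcripts, and without it the difference was 0.00.

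**Figure D2:**
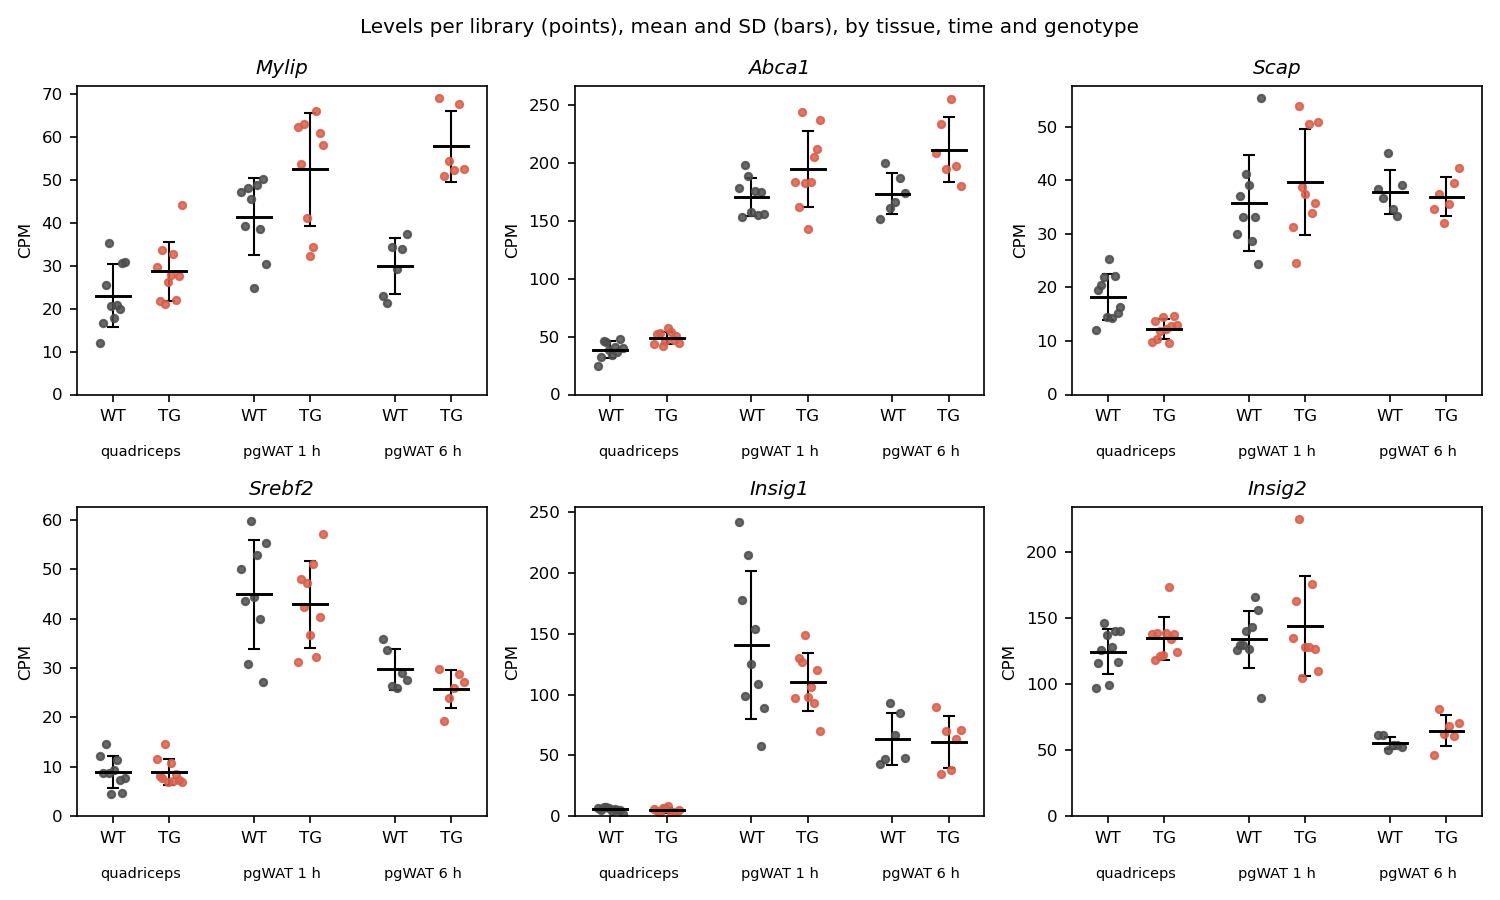
Levels in CPM (vertical axis, from 0) of Mylip, Abca1 and the 4 regulators in each library, by set and genotype; points are libraries, the long bar is the mean and the short bars 1 SD. The WT and TG points separate fully only for Mylip in pgWAT at 6 h (WT up to 37.3, TG from 51 CPM), and Scap in quadriceps is lower in TG with overlap.

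The enzymes of the mevalonate and isoprenoid steps make the building blocks of all sterols. Hmgcs1, which makes HMG-CoA, was the most abundant of them in pgWAT as counted at the 3′ end, where each transcript gives about 1 read whatever its length. Its lowest, median and highest levels at 6 h were 148, 194 and 316 CPM in WT and 134, 156 and 204 CPM in TG. The groups overlapped, and the difference of -0.34 (SE 0.19, edgeR adjusted p = 0.269) was the lowest estimate among the enzymes at 6 h. At 1 h Hmgcs1 was 295, 538 and 737 CPM in WT and 267, 511 and 777 CPM in TG (-0.10, SE 0.16). Of the 7 mevalonate and isoprenoid enzymes tested at 6 h, 4 had estimates above 0 and 3 below, with a median of 0.10. At 1 h, 1 of 7 was above 0 (Ggps1, which makes the geranylgeranyl donor of protein prenylation), with a median of -0.11. In quadriceps 3 were tested, with estimates from -0.04 to 0.13.

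The enzymes of the squalene and sterol steps turn farnesyl units into squalene and then into cholesterol. In quadriceps 6 of the 11 could be tested, with differences from -0.05 to 0.29. In pgWAT at 1 h, 8 of 11 estimates were below 0 and the range was -0.33 to 0.05. The lowest was Nsdhl, which removes carbons at C4 of the sterol ring. Its lowest, median and highest levels at 1 h were 69.8, 124 and 160 CPM in WT and 51.7, 92.7 and 128 CPM in TG. In TG 8 of 9 libraries lay below the WT median, with overlap, and the difference did not pass (-0.33, SE 0.16, unadjusted p = 0.0486, edgeR adjusted p = 1). At 6 h Nsdhl was 30.4, 38.3 and 42.8 CPM in WT and 32.6, 37.2 and 49 CPM in TG (0.09, SE 0.12), and in quadriceps 5.4, 8.99 and 11.4 CPM in WT and 4.3, 10.7 and 18.3 CPM in TG (0.29, SE 0.20). At 6 h, 7 of 11 estimates were above 0, from -0.20 for Fdft1 (squalene synthase) to 0.34 for Hsd17b7 (a sterol ketoreductase, SE 0.17, edgeR adjusted p = 0.216). Sqle, squalene epoxidase and a rate-limiting step, did not separate the genotypes at 1 h (33.3, 53.5 and 69.9 CPM in WT, 21.2, 50.4 and 66.8 CPM in TG) or at 6 h (6.22, 8.47 and 12.4 CPM in WT, 3.62, 10.5 and 12.1 CPM in TG). Fdft1, Cyp51 and Ggps1 share exonic bases with genes on the opposite strand that have counts (Ctsb, Akap9 and Arid4b), and Tm7sf2 with Vps51 on the same strand. The strand setting of the counting was not given in the sources used here, so the values of these 4 are uncertain. Fdps (farnesyl diphosphate synthase) shares 1124 exonic bases with a gene model on its own strand, Gm43738, which had 0 counts. Reads in the shared bases may have been left uncounted, so its level is uncertain too. Hmgcs1 (557 bases), Lss (381) and Idi1 (323) share exonic bases with opposite-strand gene models that had at most 2 counts in any set. Without the strand setting, reads there may also have been left uncounted, so these levels are uncertain as well.

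Read together, the synthesis genes had a median difference of 0.05 in quadriceps (9 tested, 5 above 0), -0.11 in pgWAT at 1 h (18 tested, 4 above 0) and 0.10 at 6 h (18 tested, 11 above 0), beside medians of 0.00, 0.01 and 0.00 over all genes tested. The smallest unadjusted p among them was 0.168, 0.0486 and 0.0512. The ends of their 95% intervals reached from -0.39 to 0.70 in quadriceps, from -0.82 to 0.47 at 1 h and from -0.75 to 0.71 at 6 h, and a gene's own interval bounds the difference that could have gone undetected. Without the 9 libraries high in liver or duct transcripts the median at 1 h was -0.19, with 0 genes past the threshold. Their summed level was 294 ± 10.8 CPM in WT and 301 ± 18.4 CPM in TG quadriceps (SD, n = 10 each), 1900 ± 320 and 1810 ± 303 CPM in pgWAT at 1 h (n = 9 each), and 763 ± 67 and 742 ± 80.3 CPM at 6 h (n = 6 each). In each set the difference of the sums was smaller than 1 SD.

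The genes of uptake, transport and efflux held both calls at 6 h. Mylip (ENSMUSG00000038175, chromosome 13, 45389742 to 45412022) encodes a ubiquitin ligase, also called IDOL, that marks lipoprotein receptors for breakdown in lysosomes and is a target of LXR. In pgWAT at 6 h its levels in WT were 23, 21.3, 34.4, 29.2, 34 and 37.3 CPM, and in TG 69, 51, 54.4, 52.3, 67.6 and 52.5 CPM (replicates 1 to 6). Every TG library lay above every WT library, which was true of 3.93% of all genes tested at 6 h. Mylip was higher by 0.95 on the log2 scale (SE 0.14, 95% interval 0.66 to 1.24, edgeR adjusted p = 1.84e-04), from 29.9 ± 6.55 to 57.8 ± 8.22 CPM (SD, n = 6 each), on 5844 counts in all. The call was kept in each fit that left out a single library (0.87 to 1.03) and under each other setting run (0.93 to 0.97). Its promoter window held 3 CCAAT boxes and no match to the LXR repeat.

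At 1 h Mylip had lowest, median and highest levels of 24.8, 45.6 and 50.1 CPM in WT and 32.2, 58 and 66.1 CPM in TG. In TG 6 of 9 libraries lay above the highest WT library and the other 3 lay below the WT median. The difference did not pass (0.35, SE 0.16, unadjusted p = 0.0362, edgeR adjusted p = 1). In quadriceps the levels were 12.1, 20.8 and 35.2 CPM in WT and 21.1, 27.7 and 44.1 CPM in TG. All 10 TG libraries were above the WT median, but the difference did not pass (0.30, SE 0.16, edgeR adjusted p = 0.474). Between the pgWAT times the difference was larger at 6 h by 0.60 (SE 0.22, interaction in edgeR's quasi-likelihood fit, unadjusted p = 0.011, adjusted p = 0.143), which did not pass, and library kit and sequencing run cannot be told apart from time. Over all 26 genes the interaction passed for 0 in edgeR, against 4.21% of 13022 genes, and for 0 with DESeq2. In edgeR 2 were at an unadjusted p under 0.05 (Mylip and Cyp51, the latter 0.49, SE 0.22, adjusted p = 0.266).

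Some cell type markers differed by genotype in pgWAT at 6 h. The summed level of 5 skeletal muscle markers was 22.2 to 50.4 CPM in WT and 61.1 to 120 CPM in TG, with no overlap, and 1 of the 2 tested was higher (Acta1). Of the 5 adipocyte markers 1 was higher (Cidec, 0.38, SE 0.08, edgeR adjusted p = 0.00279), while their sums overlapped, 27700 to 35400 CPM in WT and 27800 to 34300 CPM in TG. Mylip itself stood at 23.0 CPM in WT quadriceps, scaled separately, and at 29.9 CPM in WT pgWAT at 6 h. The nerve markers summed to 34.4 to 44 CPM in WT and 26.1 to 32.1 CPM in TG (1 of 2 tested lower, Mbp). The sums of the 5 lymphocyte markers overlapped, at 3.48 to 19.9 and 0.563 to 4.39 CPM, and the 1 tested did not pass. Their part in the results was not tested. In bulk tissue, fewer cells of a type and less RNA per cell cannot be told apart.

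Abca1 (ENSMUSG00000015243, chromosome 4, 53030787 to 53159895) encodes the transporter that loads cholesterol onto apolipoprotein A-I. At 6 h its lowest, median and highest levels were 152, 170 and 200 CPM in WT and 180, 203 and 255 CPM in TG. All 6 TG libraries were above the WT median and 3 were above the highest WT library. Abca1 was higher by 0.29 on the log2 scale (SE 0.09, 95% interval 0.11 to 0.47, edgeR adjusted p = 0.0331), from 173 ± 17.8 to 212 ± 27.8 CPM (SD, n = 6 each). The call was lost without any 1 of WT replicates 1, 3, 4 and 6 or TG replicates 2 and 4 (0.23 to 0.29, edgeR adjusted p from 0.0569 to 0.0848), and TG replicate 2 is the one with liver transcripts (0.26, edgeR adjusted p = 0.076 without it). Macrophages also use Abca1 strongly, and 6 macrophage markers summed to 892 to 1320 CPM in WT and 903 to 1760 CPM in TG, with 0 of 6 past the threshold. Their part in the result was not tested.

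In quadriceps Abca1 had lowest, median and highest levels of 24.2, 39.5 and 48.3 CPM in WT and 42.2, 48.6 and 57.4 CPM in TG. All 10 TG libraries lay above the WT median and 5 above the highest WT library, yet the difference did not pass (0.34, SE 0.11, 95% interval 0.13 to 0.56, edgeR adjusted p = 0.0912). At 1 h the levels were 153, 175 and 198 CPM in WT and 143, 184 and 244 CPM in TG (0.19, SE 0.09, edgeR adjusted p = 1). Without the 9 libraries high in liver or duct transcripts the difference at 1 h was 0.02. Abcg1, which passes cholesterol to mature high-density lipoprotein, did not follow: at 6 h it was 31.5 ± 8.18 CPM in WT and 30.1 ± 8.39 CPM in TG (SD, n = 6 each, -0.07, SE 0.22), and its 95% interval of -0.54 to 0.41 includes the estimate for Abca1. Stard4, a carrier of cholesterol in the cytosol and a target of SREBP2, was 9.91 ± 2.58 CPM in WT and 7.85 ± 1.39 CPM in TG at 6 h (-0.33, SE 0.17, edgeR adjusted p = 0.223).

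Genes next to these in the pathway were read from further lists. Over all lists 0 genes passed in quadriceps and in pgWAT at 1 h with edgeR. At an unadjusted p under 0.05 there were 8 of 41 genes tested in quadriceps, beside 11.7% of all genes, and 5 of 47 at 1 h, beside 4.62%. At 6 h 6 of 48 passed, beside 14.4% of all genes (6.88% higher and 7.54% lower), so the lists held no more calls than that share would give. At 6 h, 1 of 10 genes of SREBP processing and sterol sensing passed, Srebf1, which encodes SREBP1 and drives fatty acid synthesis genes. Its lowest, median and highest levels were 75.2, 104 and 115 CPM in WT and 59.6, 69.2 and 72.3 CPM in TG. The groups did not overlap, and Srebf1 fell by 0.55 on the log2 scale (SE 0.09, edgeR adjusted p = 4.19e-04). Of 7 genes known to respond to LXR outside the 27, 0 rose and 2 fell, Srebf1 again and Arl4c, a small GTPase (fell by 0.66, SE 0.18, edgeR adjusted p = 0.0157), with a median of -0.04 over the 7. Of these 7 and the 3 among the 27 genes, Mylip and Abca1 were higher, Srebf1 and Arl4c were lower, and Abcg1 and the other 5 did not pass. The list does not hold every gene reported to respond to LXR, and Gramd1b, given below under sterol transfer, was not counted in it. Of 10 genes of acetyl-CoA supply and fatty acid synthesis, 1 passed, Mlxipl, the carbohydrate response factor ChREBP. Mlxipl fell by 0.62 (SE 0.12, edgeR adjusted p = 0.00159). Of the 10 estimates 9 were below 0, with a median of -0.31. Over all 14359 genes tested 7153 were below 0, with a median of 0. Whether the 10 genes differed as a group was not tested.

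Of 8 tested genes of esterification, oxysterols and sterol transfer, 1 passed at 6 h, Gramd1b, which encodes a protein that moves cholesterol from the plasma membrane to the endoplasmic reticulum. Its lowest, median and highest levels at 6 h were 32.1, 41.7 and 52.8 CPM in WT and 66.7, 77.3 and 87.8 CPM in TG. The groups did not overlap, and Gramd1b was higher by 0.86 (SE 0.11, edgeR adjusted p = 5.31e-05). In quadriceps it was 6.14, 12.2 and 28.2 CPM in WT and 13.8, 24.6 and 29.8 CPM in TG (0.70, SE 0.20, edgeR adjusted p = 0.053), and at 1 h 28.4, 43.9 and 89.2 CPM in WT and 52.2, 71.3 and 117 CPM in TG (0.61, SE 0.19, edgeR adjusted p = 0.757). The groups overlapped in both of these sets, and neither difference passed. Of 8 genes of lipoprotein uptake and lysosomal release, 1 passed at 6 h, Npc1, the lysosomal cholesterol exporter (45.4 ± 3.69 to 54.1 ± 6.02 CPM, SD, n = 6 each, 0.25, SE 0.08, edgeR adjusted p = 0.0437). The Npc1 call was lost in 8 of the 12 fits that left out 1 library and with 3 other settings. Of 7 genes of the isoprenoid branches, 1 passed at 6 h, Fntb, a subunit of protein farnesyltransferase (16.8 ± 2.44 to 23.0 ± 3.14 CPM, SD, n = 6 each, 0.45, SE 0.11, edgeR adjusted p = 0.0124).

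The synthesis genes varied together between libraries of one genotype in pgWAT. Deviations of each library from its genotype mean (log2 CPM, prior count 2) gave a median pairwise Pearson r of 0.35 over 153 pairs of 18 genes at 1 h (18 libraries, 83.7% of pairs positive) and 0.26 at 6 h (12 libraries, 78.4% positive). Over all pairs of genes tested the median was 0 in each set, with 49.7% and 50% of pairs positive. In quadriceps the median over 36 pairs of 9 genes was -0.08 (20 libraries, 36.1% positive), where 10 of the 19 synthesis genes had too few counts to be included. These values are descriptions, since all genes of a library share its depth, scaling and cell composition. No other group of genes of like expression was compared, so they do not show that the sharing is particular to the synthesis genes. At 1 h the median was 0.41 without the 9 libraries high in liver or duct transcripts. Without the libraries with the highest and the lowest synthesis mean it was 0.32 at 1 h and 0.20 at 6 h.

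**Figure D3:**
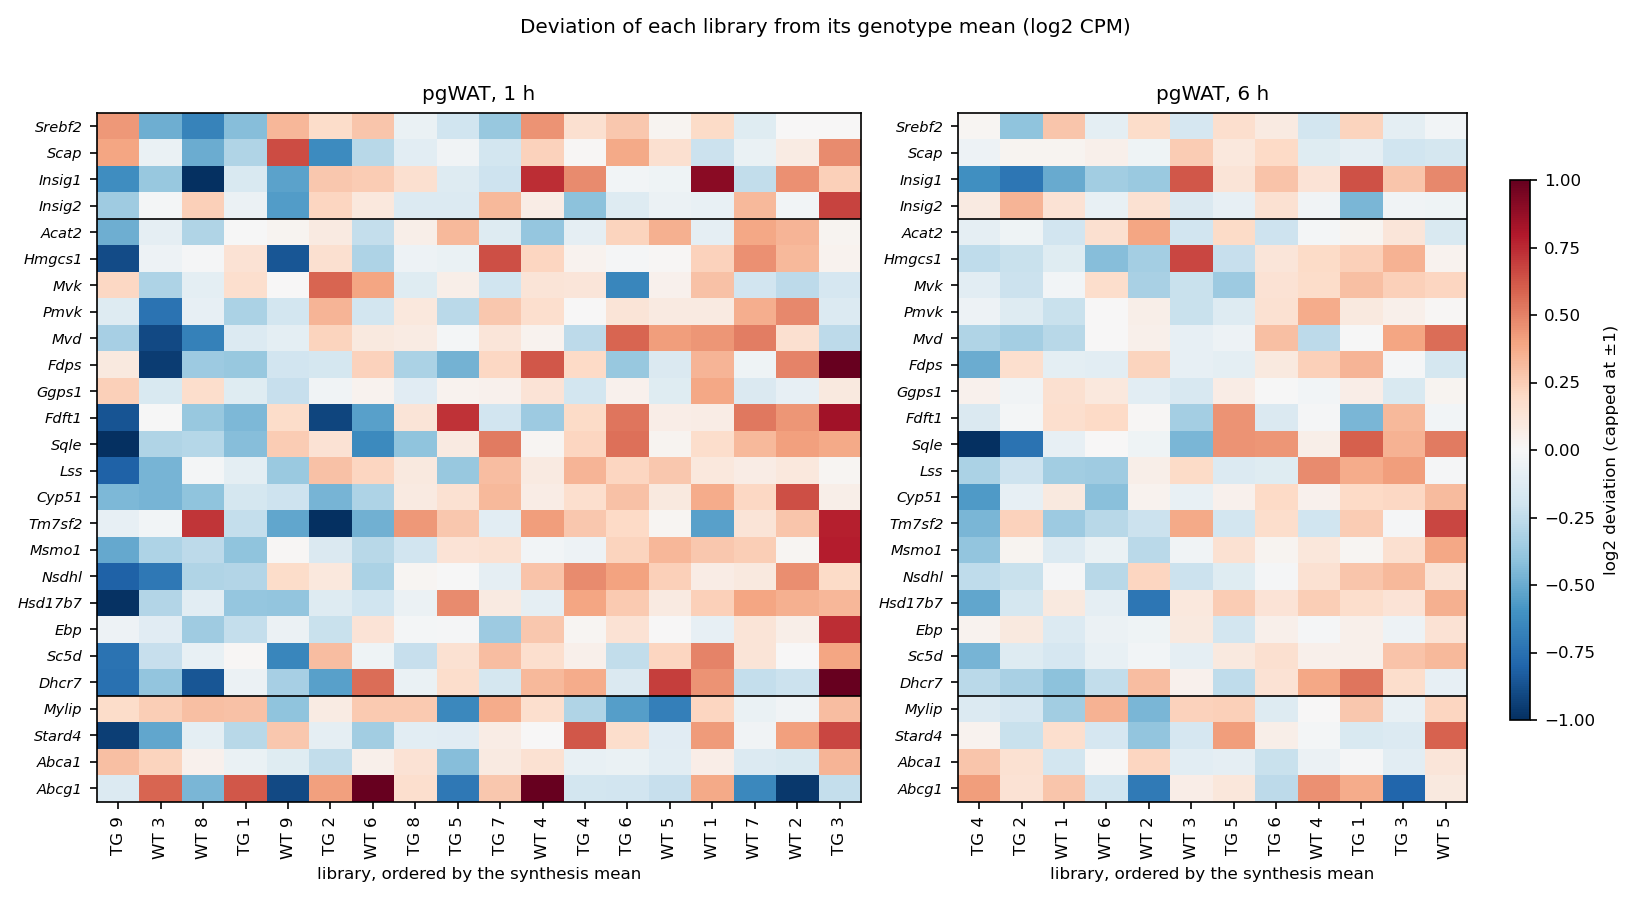
Deviation of each pgWAT library (columns, ordered by the mean of the synthesis genes) from its genotype mean for each gene tested (rows, by role), as log2 CPM in colour, red above and blue below, capped at 1 in size. At 1 h TG replicate 9 is the lowest column (-0.47) and TG replicate 3 the highest (0.36), and at 6 h TG replicate 4 is the lowest (-0.32).

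The libraries at the ends of this axis are given with their composition. At 1 h TG replicate 9 had the lowest synthesis mean, at -0.47 from the TG mean and with a sum of 1150 CPM. It also had the highest macrophage sum (1970 CPM) and fibroblast or progenitor sum (4710 CPM) of the set. TG replicate 3 had the highest mean, at 0.36, and the highest liver sum, 9660 CPM. At 6 h TG replicate 4 was the lowest at -0.32, with the highest fibroblast or progenitor sum of the set (3030 CPM) and a macrophage sum of 1110 CPM. TG replicate 3 and WT replicate 5 were the highest at 0.18 each, with macrophage sums of 918 and 1320 CPM. The library with the highest macrophage sum at 6 h, TG replicate 1 (1760 CPM), had a high synthesis mean (0.17), and that with the highest liver sum, TG replicate 2 (1460 CPM), a low one (-0.13). The part of composition in the shared variation was not tested. The values above left out the highest and the lowest library and, at 1 h, those high in liver or duct transcripts. At 6 h the highest library left out was WT replicate 5, and TG replicate 3 stayed in.

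Not every gene took part. At 1 h the highest r with the mean of the other synthesis genes was that of Hsd17b7 (0.85, and 0.60 at 6 h), and at 6 h that of Sc5d, a sterol desaturase (0.91, and 0.66 at 1 h). Of the other sterol-step enzymes, r was 0.80 at 1 h and 0.82 at 6 h for Cyp51 (lanosterol demethylase), 0.84 and 0.75 for Msmo1, 0.72 and 0.81 for Sqle, and 0.78 and 0.74 for Nsdhl. It was 0.61 and 0.67 for Lss (lanosterol synthase) and 0.60 and 0.60 for Dhcr7, which makes the last bond change to cholesterol. It was lower at 1 time or both for Fdft1 (0.59 and -0.14), Ebp (a sterol isomerase, 0.50 and 0.12) and Tm7sf2 (a sterol reductase, 0.19 and 0.49). Of the mevalonate and isoprenoid enzymes, r was 0.56 and 0.45 for Hmgcs1 and 0.51 and 0.47 for Pmvk. For Mvd r was 0.52 and 0.64, and for Fdps 0.51 and 0.48. Others of these enzymes did not follow at 1 time or both: Acat2 (0.48 and -0.03), Mvk (-0.31 and 0.53) and Ggps1 (0 and -0.28). Among the genes outside synthesis, Insig1 followed the synthesis mean at both times (0.61 and 0.80), and Stard4 at 1 h (0.80) more than at 6 h (0.20). Srebf2 mRNA did not rank with them (0.13 and 0.08), nor did Scap (0.15 and -0.35). Abca1 (-0.19 and -0.44) and Abcg1 (-0.21 and -0.25) were negative at both times, Mylip was -0.25 and 0.31, and Insig2 was 0.41 and -0.50. No r was tested for a difference from another. The plot of r at both times shows most sterol-step enzymes and Insig1 at the upper right, and the efflux transporters at the lower left. Fdft1, Ebp, Tm7sf2, Acat2, Mvk and Ggps1 lie away from the upper right.

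**Figure D4:**
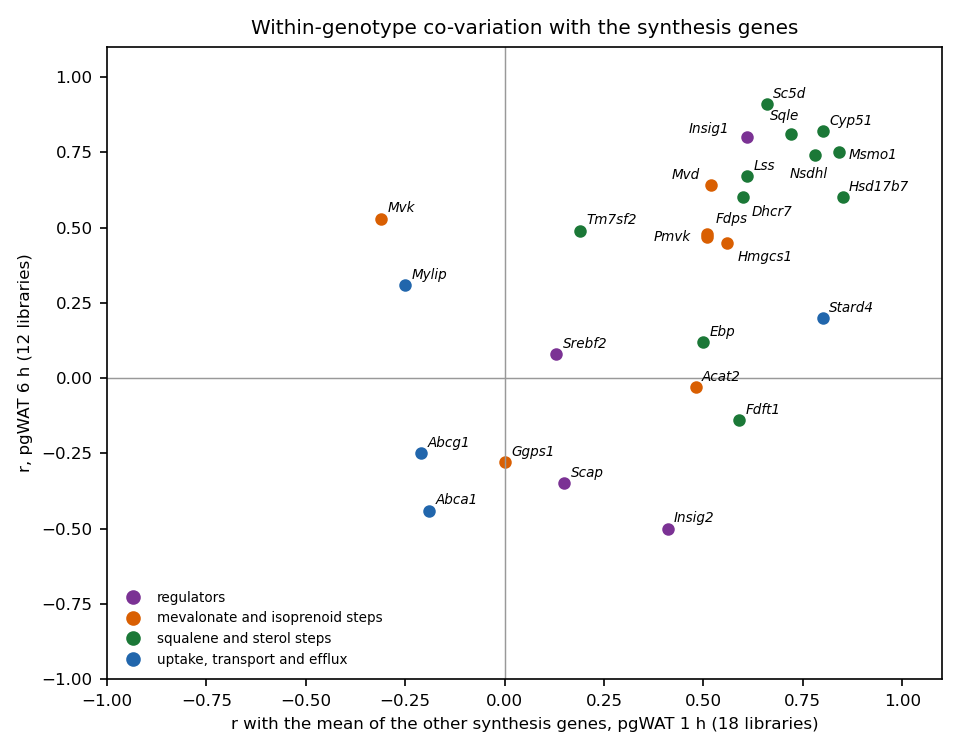
Pearson r of each gene with the mean of the other synthesis genes, over 18 libraries of pgWAT at 1 h (horizontal axis) and 12 libraries at 6 h (vertical axis), coloured by role. Cyp51 (0.80, 0.82), Msmo1 (0.84, 0.75) and Insig1 (0.61, 0.80) lie at the upper right, and Abca1 (-0.19, -0.44) and Abcg1 (-0.21, -0.25) at the lower left.

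Levels in WT differed between the sets, which were scaled separately and, for the pgWAT times, made with different kits, so time and kit cannot be told apart and no test was made. Of the 27 genes, 26 had a higher WT mean in pgWAT at 1 h than in quadriceps, the exception being Fdft1 (11.2 and 15.7 CPM), beside 74.5% of all genes with a WT count in both sets. Of the 26 tested at both times, 21 had a lower WT mean at 6 h than at 1 h, beside 70.8% of all 11035 genes tested at both times. For 11 the whole WT range at 6 h lay below that at 1 h, beside 33.7% of all genes, so the fall in level was common to many genes of these tables. The widest gaps were those of Sqle (53.6 CPM at 1 h and 8.77 CPM at 6 h, a ratio of 6.11), Hsd17b7 (59.3 and 11.6 CPM, 5.11) and Sc5d (492 and 107 CPM, 4.60). Mvk, mevalonate kinase, was the 1 gene whose WT range lay higher at 6 h (10.3 and 27.3 CPM, beside 9.17% of all genes), while Abca1 (171 and 173 CPM) and Scap (35.7 and 37.9 CPM) stood at about one level.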

How the data were processed

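Whole-tissue RNA was sequenced from the 3′ end (QuantSeq FWD), with a UMI second strand module for quadriceps and pgWAT at 1 h and the standard kit for pgWAT at 6 h, per the labels' protocols. The authors deposited raw counts for each gene as whole numbers, not normalized. The submitters' processing notes list STAR 2.7.10, cutadapt 1.18, UMI-tools 1.1.2 and bcl2fastq 2.20.0.422, with the builds GRCm39 and GRCm38. Not given in the sources used here are the counting program, its strand setting, UMI collapsing and the build of each table, and collapsed and uncollapsed counts would differ in precision.

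Rows that are not genes (5, 5 and 121) were left out. Gene rows held 73.3 to 76.5% of all counts per library in the quadriceps table, 62.9 to 70% in the 1 h table and 99.8% in the 6 h table. The rows left out thus held a large share of the quadriceps and 1 h counts. Each set was fitted alone with edgeR 4.0.16 in R 4.3.3 (filterByExpr, TMM, robust quasi-likelihood F test, Benjamini-Hochberg), and the pgWAT interaction in a single fit. DESeq2 1.42.0, other scalings, other filters, a replicate block and single-library fits were alternatives, and the script was tested on simulated data. Positions come from GENCODE vM21 on GRCm38, by identifier. Groups follow the titles, also for quadriceps TG replicate 10, titled as clamped but with 1 h in its treatment entry. Members and lists were chosen with earlier results of these data known. Named with full values were the 4 regulators, genes past the threshold, the 2 smallest p in quadriceps and at 1 h and, from the other lists, up to 3 past the threshold. Hmgcs1, Sqle, the remaining genes given with values and the ranked correlations were chosen after their values were seen.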

Additional observations from a re-analysis of the deposited data

Results flagged for a closer look

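Of 38 groups of libraries examined for the named genes, 1 had a library far from the rest, where chance gives about 1 in 20. It was Insig2 in quadriceps, for which TG replicate 7 had 174 CPM and the next library 139 CPM. The median of the TG group was 136 CPM, and Insig2 did not pass the threshold in quadriceps with or without that library.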

How the results depend on the processing

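The number of genes past the threshold in quadriceps was 1, fell to 0 with DESeq2 and with the replicate block, and was 0 to 1 when single libraries were left out. At 6 h it was 2, fell to 1 with upper quartile scaling (Abca1 0.27, edgeR adjusted p = 0.0535), and was 1 to 3 without single libraries, Insig2 passing without TG replicate 1 and Pmvk (0.27, adjusted p = 0.0372) without WT replicate 4. At 1 h and for the interaction it was 0 under every setting run. Of the named genes, estimates that crossed 0 did so only in fits without a single library: Insig2 at 1 h spanned 0.00 to 0.15, and at 6 h Scap spanned -0.08 to 0.02 and Insig1 -0.21 to 0.08. The median of the synthesis genes in quadriceps, 0.05, ran from -0.03 to 0.10 over all settings. Replicate numbers are not stated to pair the libraries, and little pairing showed. Same-numbered deviations correlated at -0.18 to 0.20, -0.18 to 0.37 and -0.09 to 0.11, with 4 of 9 pairs over 0.1 at 1 h. Of the libraries, 2 of 10, 1 of 9 and 0 of 6 correlated best with their own number. Such correlations cannot exclude a pairing. With the replicate block 0, 0 and 2 of the genes passed, and Scap in quadriceps was -0.57 (edgeR adjusted p = 0.067). Npc1 at 6 h did not pass with the block (adjusted p = 0.0966), with upper quartile scaling (0.0634) or with no filter (0.0551). The cause of these changes was not tested. In quadriceps 14 of the 27 genes had too few counts to test. Library totals there were 959980 to 2613672 counts, against 976610 to 4852560 in the 1 h set, so the sets differed in depth. They also differed in level: Sqle, for example, was at 2.76 CPM in WT quadriceps and 53.6 CPM in WT pgWAT at 1 h. The part of each in the number tested was not tested.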
